A study of Mus musculus with 24 samples.

Results

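NF-κB is a family of transcription factors that switch on inflammatory and survival genes, and the 10 genes described here encode its subunits and the kinases that release them. The genes were chosen by name, and all 10 were matched to 1 gene identifier each among the 54446 counted. They fall into 3 roles. Nfkb1, Nfkb2, Rel, Rela and Relb encode the Rel family subunits, Chuk, Ikbkb and Ikbkg the IκB kinase (IKK) complex, and Map3k7 and Map3k14 the kinases that act upstream of it.

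In resting cells, IκB proteins hold Rel family dimers in the cytoplasm. In the canonical pathway, receptors for TNF, IL-1 and Toll-like receptor ligands act through the kinase TAK1 (Map3k7) on an IKK complex of IKKα (Chuk), IKKβ (Ikbkb) and the scaffold NEMO (Ikbkg), which marks IκB for destruction and frees dimers of RELA or c-REL with the Nfkb1 product. In the non-canonical pathway, receptors such as CD40 and the lymphotoxin β receptor stabilize NIK (Map3k14), which acts through IKKα to turn the Nfkb2 precursor into a partner of RELB. Myeloid cells use both arms to make cytokines and chemokines, and mature dendritic cells are known for high RELB.

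The libraries came from CD11b+ myeloid cells sorted from MC38 tumors, a transplanted mouse colon carcinoma, in WT mice (Ythdf2 floxed on both alleles, without Cre) and in cKO mice (the same alleles with Cre driven from the lysozyme gene Lyz2, which is active in monocytes, macrophages and neutrophils). Tumors were left untreated (Ctrl) or were given a single dose of 20 Gy (IR), and the cells were taken 3 days later. The mice were young adults of both sexes on a C57BL/6J background, and the methods describe 5 pooled mice for each replicate. YTHDF2 is a reader protein that binds N6-methyladenosine (m6A) in mRNA and speeds its decay, and the libraries were either of polyadenylated RNA (Input) or of its fragments bound by an antibody against m6A (IP), with 3 replicates in each of 8 groups. The methods call the replicates technical in one place and biological in another, so p-values measure the spread between libraries, which may be technical.

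Input libraries held 65180075 to 83661576 gene counts and IP libraries 68846321 to 86421888. No pair of replicates agreed within sampling noise, and WT IR Input replicates 1 and 2 stood farthest apart, with a chi-square of 37.6 per degree of freedom against 3.53 to 17.9 for the other Input pairs. Reads in no feature came to 5.91, 6.80 and 6.26% in WT IR Input replicates 1, 2 and 3, against 4.10 to 5.30% in the other Inputs. The part of this difference in the results that rest on WT IR was not tested. The labels were then checked against the targeted gene and the Cre locus. Ythdf2 Input levels were 95.6 to 107 CPM (gene counts scaled to a common library size, with TMM factors) in WT and 174 to 231 CPM in cKO libraries, so the whole-gene count was higher, not lower, under the knockout label. Lyz2 Input levels were 20056 to 21462 CPM in WT and 296 to 414 CPM in cKO. In the unirradiated IP libraries the order was the same, with 15641 to 16500.5 CPM in WT Ctrl and 86.7 to 91.8 CPM in cKO Ctrl. In the irradiated IP libraries it was the opposite of the labels, since Lyz2 stood at 88.5 to 91.1 CPM in those labeled WT IR and at 19517 to 19808 CPM in those labeled cKO IR. These 6 libraries are therefore named by their label only, and the ratios that rest on them were computed with Inputs of either genotype label. On unscaled totals, 7 T cell markers summed to 1.62 to 2.94 CPM in each Input and 4 NK cell markers to at most 0.239 CPM, whereas the myeloid markers other than Lyz2, among them Itgam, the gene of CD11b, each stood at 265 CPM or more. The 5 markers of epithelial tumor cells summed to 5.57 to 8.05 CPM in the Inputs and to 87.7 to 129 CPM in the IP libraries.

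All 10 genes were well measured in every Input, from 2826 counts for Chuk to 36675 for Nfkb1. To compare genes, levels were divided by the length of the merged exons of each gene. In WT Ctrl, Nfkb2 was highest at 75.9 ± 1.88 CPM per kilobase (SD, n = 3), followed by Rela at 55.9 ± 1.67 and Relb at 52.9 ± 1.76 CPM per kilobase, whose libraries overlapped. Nfkb1 at 31.4 ± 0.322 and Rel at 20.1 ± 0.18 CPM per kilobase came next. Per merged exon, the kinases were lower than Rel. Map3k14 at 15.3 ± 0.377 and Ikbkg at 14.9 ± 0.126 CPM per kilobase overlapped, followed by Map3k7 at 12.6 ± 0.218, Chuk at 8.16 ± 0.227 and Ikbkb at 6.69 ± 0.0761 CPM per kilobase. The place of some genes depended on the length used. Divided by the principal transcript, a choice made after seeing the data, Ikbkb moved from rank 10 to rank 5 at 35.7 CPM per kilobase and Nfkb1 from rank 4 to rank 3 at 92.1, since their merged exons of 19078 and 12061 bases far exceed the principal transcripts of 3580 and 4117 bases. Rela moved from rank 2 to rank 4, and Ikbkb and Map3k14 (23.6) then lay above Rel (20.1 CPM per kilobase, rank 7). Nfkb2 stayed highest by either length, at 111 CPM per kilobase of principal transcript.

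Irradiation of WT tumors was followed by higher RNA of 7 of the 10 genes and lower RNA of 1, at an adjusted p under 0.05 (edgeR's quasi-likelihood test, Benjamini-Hochberg over all genes). Among the 16090 genes tested, 31.7% were called in either direction and 14.7% were higher. The largest rises were those of Rel and Map3k14, by 0.58 and 0.53 on the log2 scale. The median change of the 10 genes was 0.18 on the log2 scale, against 0.01 for all genes tested. Leaving out 1 library at a time gave 6 to 8 called genes, and 8 without either of the WT IR replicates that stood apart, 1 or 2. In such sorted bulk samples, more cells of a type and more RNA per cell cannot be told apart.

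Within the Rel family, Rel responded most. Rel, on chr11:23736847-23770970 of the minus strand (GRCm38), encodes c-REL, a strongly activating subunit that is abundant in blood cells. Its Input levels were 150.2, 148.4 and 151 CPM in WT Ctrl and 209, 240.4 and 224 CPM in WT IR. The lowest irradiated library lay above every unirradiated one. The log2 fold change was 0.58 ± 0.04 (SE), with an adjusted p of 8.0e-10.

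The partners of the non-canonical arm rose less. Nfkb2 (chr19:46304320-46312385, plus strand) encodes a precursor that acts as an inhibitor until it is cut. Nfkb2 went from 347, 357 and 339.6 CPM in WT Ctrl to 427, 401 and 413 CPM in WT IR, with a log2 fold change of 0.25 ± 0.03 and an adjusted p of 3.8e-06. Relb (chr7:19606217-19629438, minus strand), its usual partner, went from 203, 213 and 201 CPM to 257, 231 and 239 CPM, with a log2 fold change of 0.24 ± 0.04 and an adjusted p of 8.4e-05. For both genes the 2 groups did not overlap.

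The canonical pair behaved otherwise. Nfkb1 (chr3:135584655-135691547, minus strand), the precursor of the usual partner of RELA, stood at 376, 384 and 378 CPM in WT Ctrl and at 361, 356 and 352 CPM in WT IR. The groups did not overlap, and the fall of 0.09 ± 0.03 on the log2 scale passed the test with an adjusted p of 0.025. That call was lost without WT Ctrl replicate 1, 2 or 3 or WT IR replicate 3, at log2 fold changes between −0.10 and −0.08. Rela (chr19:5637483-5648130, plus strand) encodes the main activating subunit of the canonical pathway. Rela levels were 168, 178 and 170.0 CPM in WT Ctrl and 185, 169 and 172 CPM in WT IR, groups that overlapped, with a log2 fold change of 0.03 ± 0.04 and an adjusted p of 0.63.

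The 3 genes of the IKK complex were each slightly higher after irradiation in WT. Chuk (chr19:44073335-44107480, minus strand), which serves both arms, rose from 40.6, 41.1 and 42.8 CPM to 44.2, 51.3 and 47.2 CPM, a log2 fold change of 0.20 ± 0.05 with an adjusted p of 0.0044. Ikbkb (chr8:22659212-22706589, minus strand), the main kinase of the canonical arm, rose from 127, 129 and 126 CPM to 147, 141 and 137 CPM, a log2 fold change of 0.15 ± 0.04 with an adjusted p of 0.0024. Ikbkg (chrX:74393290-74453854, plus strand), the scaffold, rose from 121, 121 and 119.6 CPM to 132, 132 and 129 CPM, a log2 fold change of 0.12 ± 0.03 with an adjusted p of 0.013. None of the 3 had overlapping groups. The Ikbkg call was lost without WT Ctrl replicate 3, at 0.11.

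Of the upstream kinases, only Map3k14 was called. Map3k14 (chr11:103219762-103267472, minus strand) encodes NIK, the kinase whose amount is the switch of the non-canonical arm. Its levels were 101, 103 and 97.8 CPM in WT Ctrl and 155, 138 and 143 CPM in WT IR, with no overlap and a log2 fold change of 0.53 ± 0.04, or 1.45-fold (adjusted p = 7.6e-09). Map3k14 shares 135 exonic bases with 1700028N14Rik on the same strand, and reads in that stretch may be missing from its count. Map3k7 (chr4:31964097-32023467, plus strand) stood at 80.2, 80.3 and 82.7 CPM in WT Ctrl and at 77.3 to 80.0 CPM in WT IR. The log2 fold change was −0.04 ± 0.04, with an adjusted p of 0.39.

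**Figure D1:**
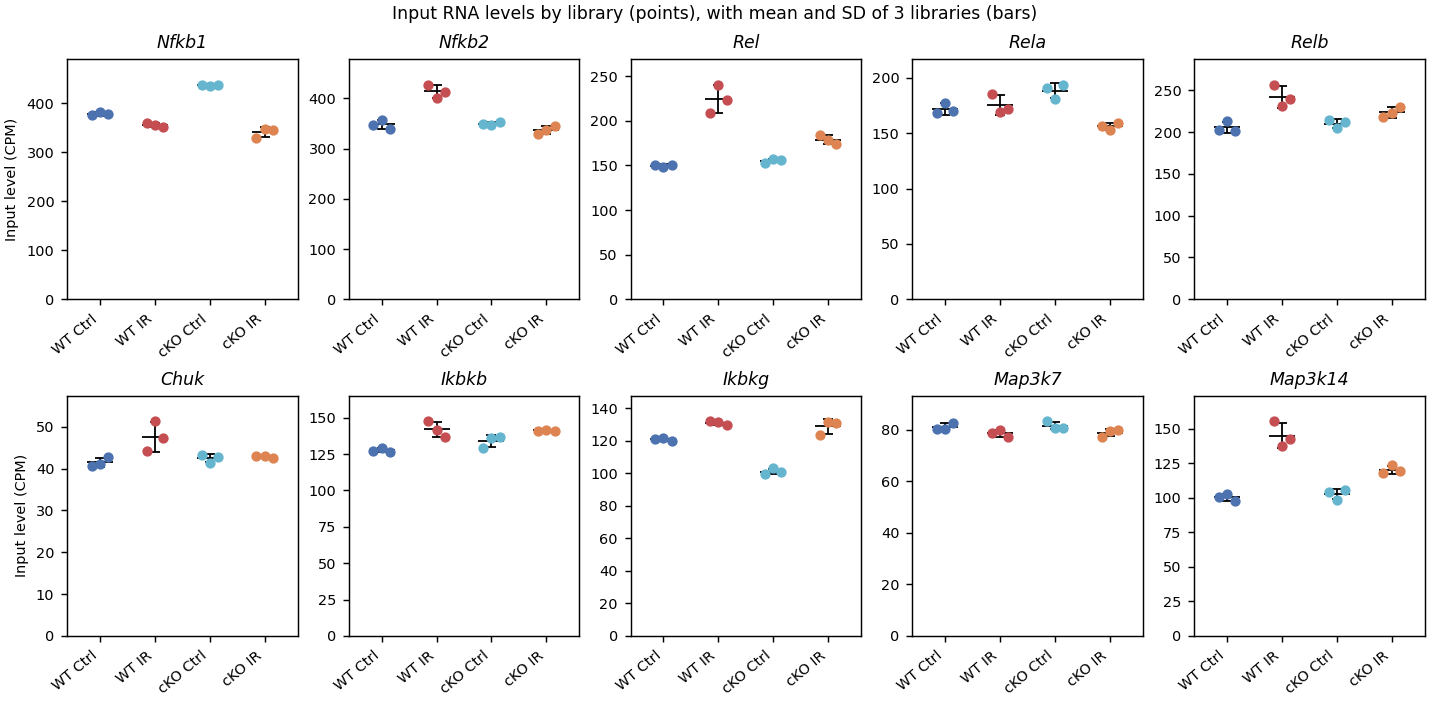
Input levels of the 10 genes in CPM on linear axes that start at 0, 1 panel for each gene, with a point for each of the 3 libraries in each of the 4 groups and black bars for the mean and SD. Rel and Map3k14 rose in WT IR, to 209 to 240.4 and 138 to 155 CPM, and less in cKO IR, to 174 to 184 and 118 to 124 CPM, while Map3k7 stayed between 77.3 and 83.2 CPM throughout.

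The same irradiation in cKO mice was followed by higher RNA of 3 genes and lower RNA of 2, where 45.6% of all genes were called. Rel rose from 153, 157 and 156 CPM to 184, 178 and 174 CPM (log2 fold change 0.20 ± 0.04, adjusted p = 0.00036). Map3k14 rose from 104, 98.5 and 105 CPM to 118, 124 and 119 CPM (0.23 ± 0.04, adjusted p = 0.00022). In both genes the groups did not overlap.

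Ikbkg showed the largest rise of the 10 in cKO, from 99.5, 103 and 101 CPM to 124, 132 and 131 CPM (log2 fold change 0.35 ± 0.03, adjusted p = 5.9e-08). It started from a lower unirradiated level than in WT and ended near the WT IR level. The 2 genes that fell were the canonical pair. Nfkb1 went from 437, 435 and 438 CPM to 330.2, 348 and 346 CPM (−0.35 ± 0.03, adjusted p = 5.3e-09), and Rela from 191, 181 and 194 CPM to 156, 153 and 159 CPM (−0.27 ± 0.04, adjusted p = 1.0e-05). Neither had overlapping groups, but groups also stood apart for genes that did not pass the test, such as Map3k7 in both genotypes. The share of all genes without overlap was not computed, so groups that do not overlap are given throughout as a description only. Nfkb2, Relb, Chuk, Ikbkb and Map3k7 did not pass the test, with log2 fold changes between −0.05 and 0.09.

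**Figure D2:**
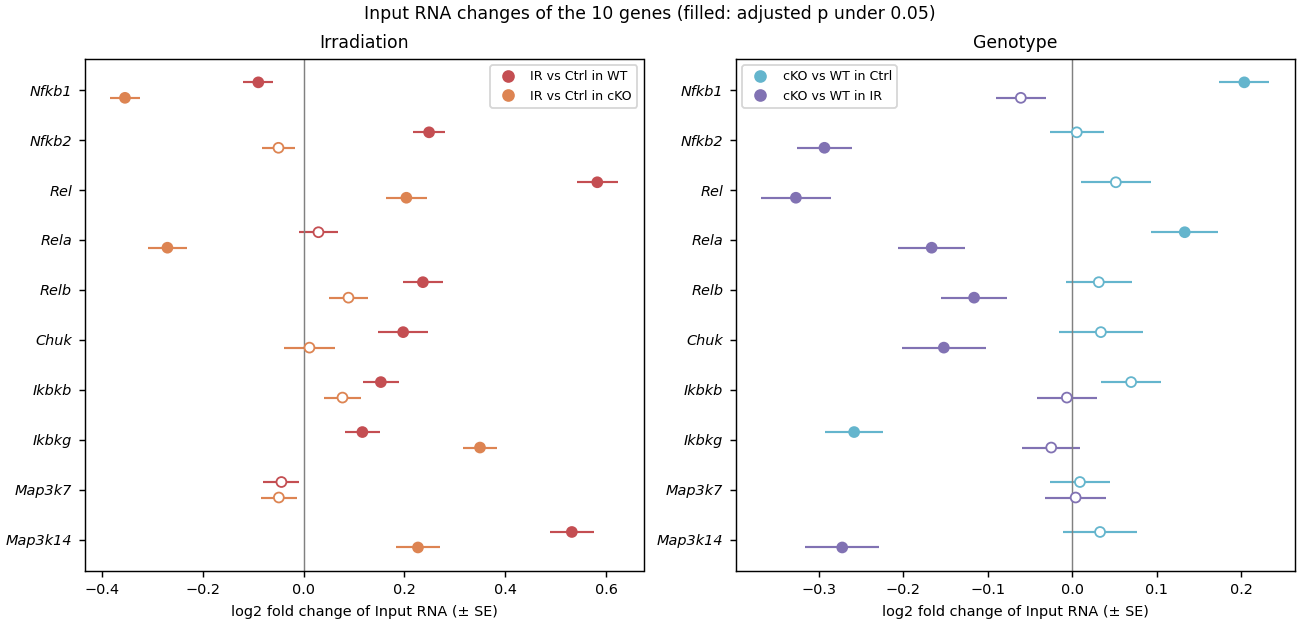
Log2 fold changes of Input RNA with their SE on the horizontal axis, 1 line for each gene, for IR against Ctrl in WT and in cKO (left) and for cKO against WT in Ctrl and in IR (right), with filled points for an adjusted p under 0.05. For irradiation, Rel lies at 0.58 in WT and 0.20 in cKO and Nfkb1 at −0.09 and −0.35, and 6 genes are called lower in cKO among irradiated samples.

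Whether irradiation acted differently in the 2 genotypes was tested as an interaction, taken as the log2 change of cKO less the log2 change of WT. It was below 0 for 5 genes and above 0 for 1, against 30.2% of all genes called in either direction and 15.2% below 0. Rel had the largest difference at −0.38 ± 0.06 (adjusted p = 4.7e-05), followed by Map3k14 at −0.31 ± 0.06 (7.2e-04), Rela at −0.30 ± 0.06 (3.4e-04), Nfkb2 at −0.30 ± 0.05 (4.1e-05) and Nfkb1 at −0.26 ± 0.04 (6.2e-05). Ikbkg was the exception, at 0.23 ± 0.05 (adjusted p = 0.0010). Relb at −0.15 ± 0.06 and Chuk at −0.19 ± 0.07 missed the threshold, with adjusted p of 0.052 and 0.053, and passed it in DESeq2. The interaction did not pass the test for Ikbkb, at −0.08 ± 0.05, or Map3k7, at −0.01 ± 0.05.

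Between genotypes without irradiation, the cKO Inputs were higher for 2 of the 10 genes and lower for 1, where 15.7% of all genes were called. Nfkb1 was higher in cKO Ctrl (435 to 438 CPM) than in WT Ctrl (376 to 384 CPM), at 0.20 ± 0.03 on the log2 scale (adjusted p = 4.6e-05). Ikbkg was lower (99.5 to 103 against 119.6 to 121 CPM), at −0.26 ± 0.03 (adjusted p = 1.9e-05). Rela was higher by 0.13 ± 0.04 (adjusted p = 0.025), and this call was lost without WT Ctrl replicate 1 or 3 or cKO Ctrl replicate 1 or 3, at 0.11 to 0.13. The log2 differences of the other 7 lay between 0.01 and 0.07.

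Between irradiated genotypes, 6 of the 10 genes were lower in cKO and none was higher. Over all genes 47.7% were called in either direction and 23.8% were lower. Rel was lower by 0.33 ± 0.04 on the log2 scale (adjusted p = 1.4e-06), and Nfkb2 by 0.29 ± 0.03 (2.2e-07): the 3 cKO IR libraries held 329.5 to 345 CPM of Nfkb2 and the 3 WT IR libraries 401 to 427 CPM. Map3k14 decreased by 0.27 ± 0.04 (2.8e-05), Rela by 0.17 ± 0.04 (0.0016), Chuk by 0.15 ± 0.05 (0.017) and Relb by 0.12 ± 0.04 (0.020). The Chuk call was lost without WT IR replicate 2, at −0.10 (adjusted p = 0.108). The Relb call was lost without WT IR replicate 1, at −0.07, and without cKO IR replicate 1 or 2, at −0.10 and −0.12. The median of the 10 genes was −0.13, against 0.00 over all genes tested. Nfkb1, Ikbkb, Ikbkg and Map3k7 did not pass the test, at −0.06 to 0.00, and Nfkb1 passed it in DESeq2.

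Other genes of the pathway were counted in lists of ligands, receptors, adaptors and ubiquitin enzymes, IKK-related kinases, IκB proteins, negative regulators and target genes, of which 59 of 62 had enough Input counts. In WT, irradiation was followed by higher RNA of 17 and lower RNA of 9, with a median log2 fold change of 0.01, beside the 31.7% of all genes called and 14.7% higher. Target genes held most of the rises, with 9 of 14 higher and 1 lower (median 0.32): Il12b, a subunit of interleukin 12, rose by 0.76 ± 0.04 and the neutrophil chemokine Cxcl1 by 0.74 ± 0.05. The ligands Tnfsf13b (BAFF, −1.88 ± 0.24) and Ltb (lymphotoxin β, −1.86 ± 0.13) fell, 2 of 6 ligands tested, and 1 rose. Of the 6 IκB proteins, Nfkbib rose (0.40 ± 0.04) and Bcl3 fell (−0.22 ± 0.05).

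In cKO, irradiation was followed by higher RNA of 22 and lower RNA of 19 of these 59 genes, beside 45.6% of all genes called. Of the target genes 11 of 14 rose and 1 fell, where 21.8% of all genes were higher. Cxcl1 rose by 1.18 ± 0.05 and Il6 by 1.02 ± 0.10. Between irradiated genotypes, 11 of 14 target genes were higher in cKO and none lower (median 0.41), where 23.9% of all genes were higher, with the chemokine Ccl4 at 1.62 ± 0.09 and Il6 at 1.22 ± 0.10. Ligands showed 4 higher of 6, with Lta at 1.38 ± 0.27 and Il1b at 1.08 ± 0.04, and IκB proteins 3 higher of 6, with Nfkbiz at 0.36 ± 0.04 and Nfkbia at 0.29 ± 0.04. Without irradiation, target genes were also higher in cKO for 11 of 14 and lower for none, where 8.05% of all genes were higher. The contrasts share libraries, and the lists were chosen with earlier results of these data known.

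RNA of cell type markers also moved in the same contrasts. Of all genes, 31.7% were called for irradiation in WT and 45.6% in cKO, and 47.7% between irradiated and 15.7% between unirradiated genotypes. The 5 neutrophil markers all fell after irradiation in both genotypes, from summed levels of 1544 to 1635 CPM to 318 to 359 CPM in WT and from 668 to 685 CPM to 297 to 314 CPM in cKO. The 5 mature dendritic cell markers, of which Ccr7 and Fscn1 are defining, all rose in both, from 2334 to 2383 CPM to 3430 to 3529 CPM in WT and from 2527 to 2549 CPM to 3570 to 3646 CPM in cKO. The 4 monocyte markers all fell in both, from 1234 to 1285 CPM to 643 to 662 CPM in WT and from 1165 to 1217 CPM to 867 to 894 CPM in cKO. Of the 5 macrophage markers, 3 fell and 0 rose in WT, and 4 fell and 1 rose in cKO. Of the 4 dendritic cell markers tested, 3 rose and 0 fell in WT, and 1 rose and 1 fell in cKO. Between irradiated genotypes, 4 of 4 monocyte markers and 3 of 5 macrophage markers were higher in cKO with 1 macrophage marker lower, and 4 of 5 neutrophil markers and 3 of 4 dendritic cell markers tested were lower. Of the 5 mature dendritic cell markers, 2 were higher and 2 lower. Between unirradiated genotypes, 4 of 5 neutrophil markers were lower in cKO and 1 higher (median log2 difference −1.41), while 4 of 5 macrophage markers and 3 of 4 monocyte markers were higher, with 1 lower in each. The 5 erythroid markers summed to 27.4 to 29.9 CPM in WT IR and to at most 0.0668 CPM in every other Input. In the IP libraries of both irradiated labels, they summed to at most 0.189 CPM. Neutrophil markers summed to 575 to 595 CPM in WT Ctrl IP and to 603 to 631 CPM in cKO Ctrl IP, without the gap of the Inputs. Marker levels of Input and IP thus did not differ between groups in the same way. The part of these shifts in the changes of the 10 genes, or in their ratios of IP over Input, was not tested.

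Over the 12 Inputs, the genes did not all vary together. The closest pair was Relb with Map3k14 (Pearson r = 0.96 on log2 levels), followed by Rel with Map3k14 (0.92) and Rel with Chuk (0.88). Nfkb1 and Rela also ran together (0.82), and both ran against Ikbkg (−0.93 and −0.69). The most alike of all genes was Adgrg6 for Rel (0.99), Cx3cl1 for Map3k14 (0.99), Nfatc2 for Nfkb1 (0.99) and Uchl1 for Ikbkg (0.98). It was Stat3 for Nfkb2 (0.98), Arhgef40 for Relb (0.97), Skiv2l for Rela (0.97), Pcmtd1 for Chuk (0.97) and Rai14 for Ikbkb (0.96), but for Map3k7 no gene except Xpnpep3 passed 0.90. The 12 points fall into 4 groups and share their libraries, so these are descriptions of a group pattern and carry no p.

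m6A peaks, which the authors called in each IP library against a control, were listed for few of the 10 genes. Of the 16090 genes in the Input test, 34.9% had a consensus peak, a region covered by peaks of all 3 libraries of at least 1 group. Among 4259 genes with a mean Input level at least that of Chuk, the lowest of the 10, the share was 47.9%. Of the 10 genes, only Map3k7 had one. Of the other pathway genes 28 of 62 did, among them 12 of 18 adaptors and ubiquitin enzymes, 4 of 5 negative regulators and 5 of 14 target genes. Nfkb2, Rel, Rela, Relb, Chuk, Ikbkg and Map3k14 had no peak in any of the 12 libraries.

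Nfkb1 had a peak in WT Ctrl replicate 1 only, of 1.56-fold, in the coding part of exon 25. Ikbkb had a peak in replicate 3 of WT Ctrl (1.83-fold) and of cKO Ctrl (2.11-fold), in the coding part of exon 17. In the irradiated IP libraries neither gene had a peak. Groups differ in how many peaks were listed, from 13470 to 17608 in a library, and absence from a list is not absence of m6A.

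Map3k7 had 2 consensus peaks, both in its last exon, exon 16. A further peak, in an intron (chr4:32016912-32017061), was listed in WT Ctrl replicate 1 only, at 3.51-fold, the highest fold of any peak in the 10 genes. Of the consensus peaks, one lies in the coding sequence (chr4:32019381-32019536), with its summit at position −167, counted in bases from the end of the stop codon. The other lies in the 3′ UTR (chr4:32019971-32020181), with its summit at position 464. The letters around the summits are shown because this is the single transcript of the set with a repeatable mark. Each window holds 30 bases of the plus strand of GRCm38 around the match nearest to the summit, with the match in capitals. The 4 motifs searched were GGACT and GGACA, then GGACC, and lastly AGACT.
Map3k7, coding sequence, chr4:32019510-32019539: agttgcagaattGGACCaggatgaaaagga
Map3k7, 3′ UTR, chr4:32020138-32020167: tacattacagagGGACAgaatgttgaggct
The matches lie 10 and 7 bases from the summits. Such short motifs are common, with 19 to 24 matches in the principal transcript of each of the 10 genes, and a match is a description, not a site.

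The 3′ UTR peak of Map3k7 was the steadier of the 2. It was listed in all 3 libraries of WT Ctrl (1.95, 1.75 and 2.16-fold), of cKO Ctrl (2.03, 1.92 and 1.95-fold) and of those labeled cKO IR (1.74, 2.24 and 2.08-fold). In the libraries labeled WT IR it was listed in replicates 1 and 3, at 2.75 and 2.25-fold, and not in replicate 2. The coding peak was listed in all 3 libraries of cKO Ctrl only, at 2.61, 2.28 and 1.95-fold, and in 2 of 3 libraries of each other group, at 1.53 to 2.23-fold. In WT Ctrl replicate 2, a single peak of 1.75-fold spanned both positions. The folds overlapped between groups, and none reached 4.

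**Figure D3:**
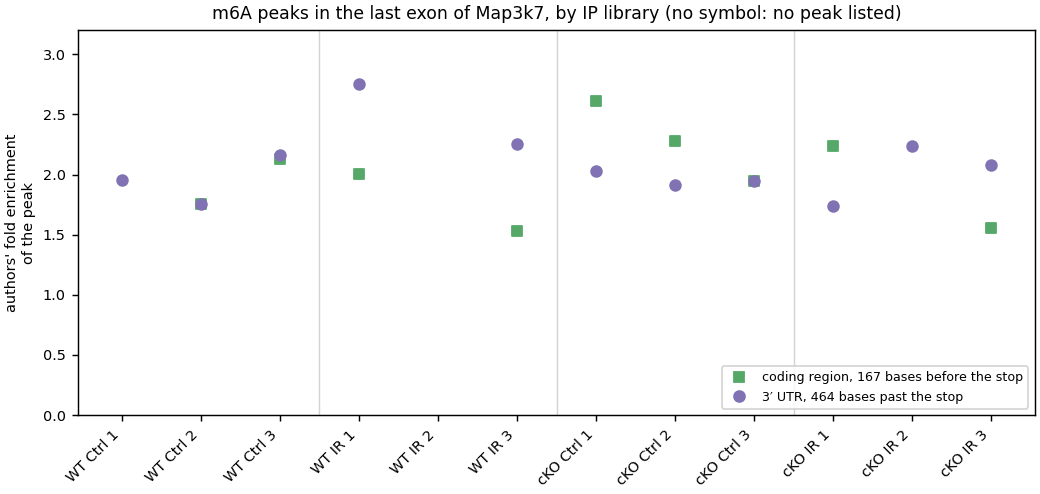
Fold enrichment that the authors' peak caller gave at the 2 consensus peak positions of Map3k7 (vertical axis, from 0) in each of the 12 IP libraries named by label and replicate, with squares for the coding position and circles for the 3′ UTR. The 3′ UTR peak is present in 11 of 12 libraries at 1.74 to 2.75-fold, and the coding peak in 9 of 12 at 1.53 to 2.61-fold.

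The transcripts of the 10 genes ranged widely in motif letters. Their median was 5.37 matches of the 4 motifs per kilobase of principal transcript, against 4.88 over 12824 genes. Relb had 9.05 and Rela 8.10 matches per kilobase, above 97.5% and 94.5% of these genes counted from the lowest, although neither had a peak. Rel and Ikbkg had 2.95 each, at the 10.6 and 10.7 percentiles, and Map3k7, the single gene with consensus peaks, had 3.53, at the 19.9 percentile. The longest exon was 6194 bases in Rel, 5562 in Ikbkg and 3967 in Map3k7, and 329 bases in Nfkb2.

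The antibody enrichment of whole genes was read as the log2 ratio of IP over Input, which is relative to the typical gene. In WT Ctrl all 10 genes were lower in IP than in Input, against 37.5% of 17373 genes tested. Rel (−2.29 ± 0.04), Nfkb2 (−2.19 ± 0.03) and Relb (−2.11 ± 0.04) were lowest, at the 1.89, 2.14 and 2.46 percentiles of all genes. Ikbkg (−1.28 ± 0.03), Rela (−1.26 ± 0.04) and Nfkb1 (−0.999 ± 0.03) followed, then Map3k14 (−0.87 ± 0.05), Ikbkb (−0.80 ± 0.03) and Chuk (−0.66 ± 0.06). Map3k7 stood at −0.13 ± 0.03, with an adjusted p of 9.3e-04, the highest of the 10. The median over genes was 0.76 with a consensus peak and −0.25 without one.

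The same held in the other labels. All 10 genes were lower in IP in cKO Ctrl, against 36.0% of all genes, and 9 of 10 in those labeled WT IR (36.5%) and cKO IR (36.9%), where Map3k7 at 0.01 ± 0.03 and −0.05 ± 0.03 did not pass the test. With the irradiated IP libraries set against the Inputs of the other genotype label, 9 of 10 were again lower in each, against 35.2% of all genes for IP labeled WT IR and 37.6% for cKO IR. Map3k7 again did not pass the test, at 0.01 and −0.05. Rel then stood at −2.46 in IP labeled WT IR and −2.68 in IP labeled cKO IR, against −2.79 and −2.35 with the Inputs of the same label.

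**Figure D4:**
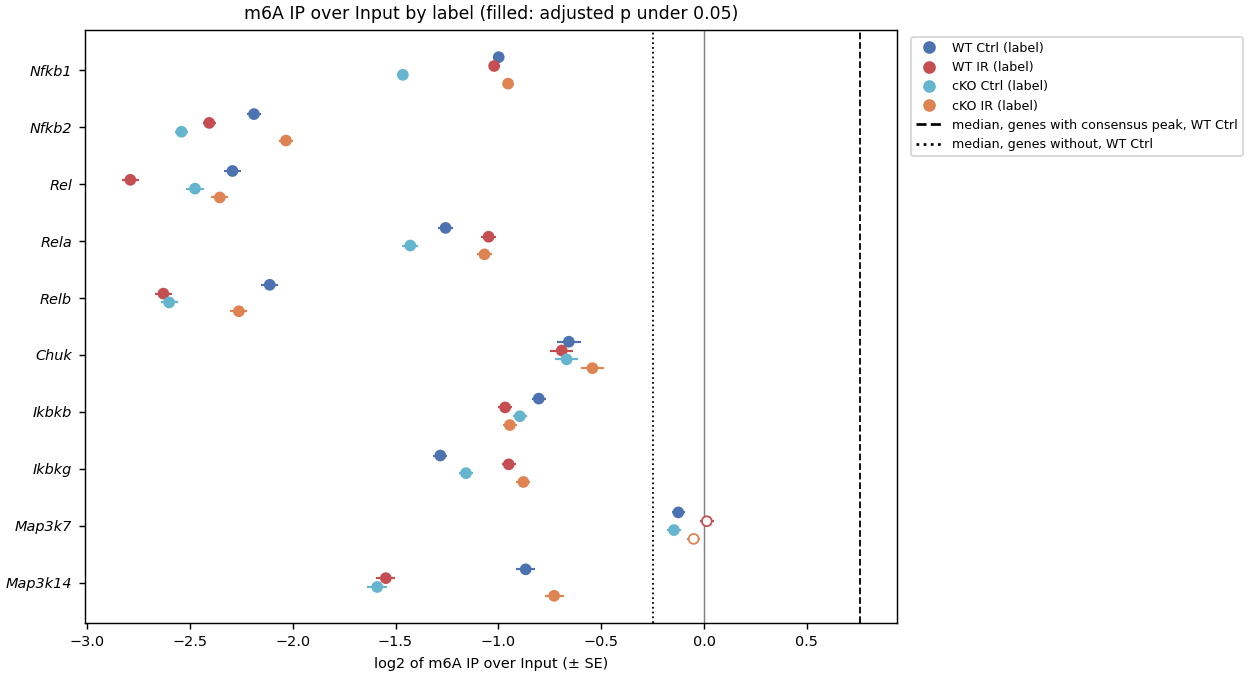
Log2 of m6A IP over Input with its SE (horizontal axis) for the 10 genes in the 4 labels, each against the Inputs of the same label, with filled points for an adjusted p under 0.05, and the WT Ctrl medians of genes with (dashed) and without (dotted) a consensus peak. Every point except those of Map3k7 lies left of the dotted line at −0.25, and Rel, Nfkb2 and Relb lie at −2.03 or below.

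Between unirradiated genotypes, IP over Input was lower in cKO for 6 of the 10 genes and higher for none, with 22.6% of all genes called in either direction. Map3k14 differed most. Its IP levels were 58.7, 59.7 and 59.7 CPM in WT Ctrl and 33.6, 40.2 and 37.5 CPM in cKO Ctrl, with no overlap, while its Input levels did overlap. The difference of log2 ratios was −0.72 ± 0.07 (adjusted p = 2.2e-10). Relb followed at −0.49 ± 0.06 (3.0e-08), with 51.1, 49.8 and 53.2 CPM in WT Ctrl IP and 35.4, 38.4 and 39.1 CPM in cKO Ctrl IP. All 5 Rel family genes were called: Nfkb1 at −0.47 ± 0.04, Nfkb2 at −0.35 ± 0.04, Rel at −0.18 ± 0.06 and Rela at −0.17 ± 0.05. The IKK genes and Map3k7 did not pass the test, at −0.09 to 0.12. The Rel call was lost without WT Ctrl IP replicate 3 or cKO Ctrl IP replicate 1, both at −0.17, and the Rela call without cKO Ctrl IP replicate 1, WT Ctrl Input replicate 1 or cKO Ctrl Input replicate 3, at −0.16 to −0.15. Of the other pathway genes 36 of 60 were lower and 2 higher.

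Comparisons that use the irradiated IP libraries depended on which Input they were set against. By label, 8 genes were called between WT IR and WT Ctrl, 3 higher and 5 lower (41.4% of all genes in either direction), and 6 between cKO IR and cKO Ctrl, all higher (45.4%). Between cKO IR and WT IR 4 were called, all higher (38.3%). Map3k14 again had the largest differences. Its IP levels were 53.3, 55.2 and 51.8 CPM in the libraries labeled WT IR and 77.6, 78.3 and 78.2 CPM in those labeled cKO IR, an order opposite to that of its Inputs. Its ratio was lower by 0.68 ± 0.07 in WT IR than in WT Ctrl and higher by 0.86 ± 0.07 in cKO IR than in cKO Ctrl.

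The other pairing exchanged the irradiated Inputs only, and each IP label kept its own Ctrl. By Lyz2, it thus sets irradiated libraries against the Ctrl of the other genotype. With the Inputs of the other genotype label, 3 genes were higher and 4 lower between WT IR and WT Ctrl (52.9% of all genes called in either direction). The call of Nfkb2 was lost, from −0.22 to 0.075, while Relb went from −0.52 to −0.40, Rel from −0.50 to −0.17 and Rela from 0.21 to 0.375. Between cKO IR and cKO Ctrl, 6 genes were higher and 1 lower (33.3%). The lower one was Rel, at −0.21 where its label value of 0.12 was not called, and Relb went from 0.34 to 0.22 and Nfkb1 from 0.51 to 0.45.

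Between cKO IR and WT IR, 1 gene was higher and 3 were lower (44.9%), with Rela called in place of Relb. In the order of the IP labels, Map3k14 kept its sign in all 3 comparisons, at −0.41, 0.59 and, between the irradiated labels, 0.27 in place of 0.82. Relb lost its call between the irradiated labels, at 0.135 (adjusted p = 0.0501) in place of 0.37. Rel and Nfkb2 changed sign in the order of the IP labels. Between IP labeled cKO IR and WT IR, their differences were 0.43 ± 0.06 and 0.37 ± 0.04 by label. With the other Inputs they were −0.22 and −0.21, and all these values passed the threshold. Both pairings subtract IP labeled WT IR from IP labeled cKO IR. By Lyz2, the second pairing would then read as WT less cKO. Read as cKO less WT, Rel and Nfkb2 would keep the direction of the label values and Map3k14 would not. Rela, not called by label at −0.02 ± 0.05, was at −0.35 (adjusted p = 1.3e-06) with the other Inputs.

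The difference of irradiation effects on IP over Input, cKO less WT by label, was above 0 and called for 5 genes, against 33.6% of all genes in either direction. They were Map3k14 (1.54 ± 0.09), Relb (0.86 ± 0.08), Nfkb2 (0.73 ± 0.06), Rel (0.62 ± 0.08) and Nfkb1 (0.53 ± 0.05). With the other Inputs 3 of these were called, against 44.4% of all genes, Map3k14 at 0.996, Relb at 0.62 and Nfkb1 at 0.41. Nfkb2 at 0.14 and Rel at −0.04 did not pass the test. By Lyz2, the irradiated IP libraries resemble the Inputs of the other label, while the Ctrl libraries were kept by label. The values with the other Inputs thus mix genotype with irradiation, and a full exchange of the IP labels was not tested.

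**Figure D5:**
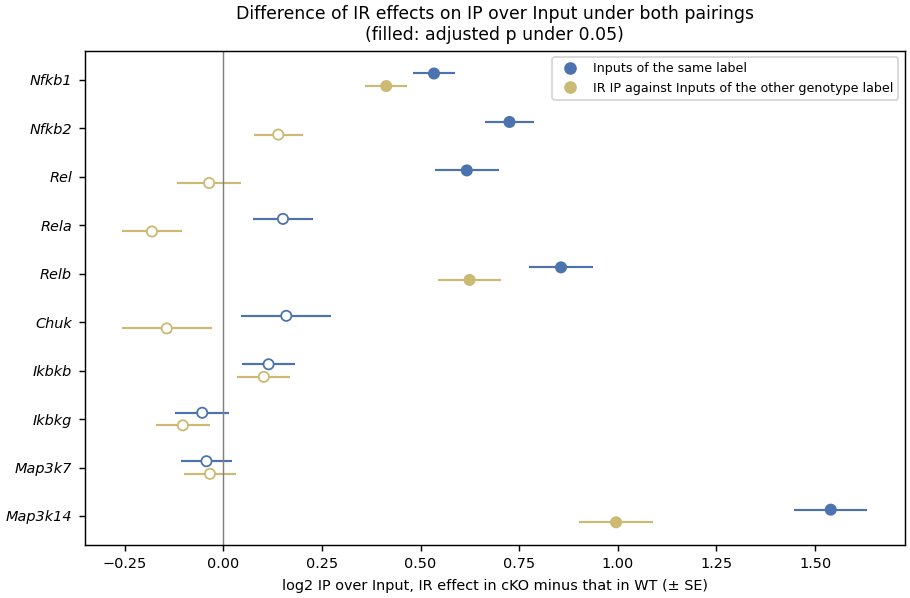
Difference of irradiation effects on log2 IP over Input, cKO minus WT by IP label, with its SE (horizontal axis), for each gene with Inputs of the same label (blue) and with the irradiated IP libraries set against Inputs of the other genotype label (yellow), filled where the adjusted p is under 0.05. Map3k14, Relb and Nfkb1 are called under both, at 1.54 and 0.996, 0.86 and 0.62, and 0.53 and 0.41, whereas Rel moves from 0.62 to −0.04. The Ctrl libraries and the order of subtraction follow the IP labels under both pairings.

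Several of these genes are textbook targets of NF-κB themselves, so their promoters were searched for the κB motif, GGGNNNTTCC on the strand of the gene or GGAANNNCCC as the same motif on the other strand. RefSeq windows on GRCm38.p6, of 250 bases before to 50 after a start site, were at hand for 7 of the 10 genes, and 4 of the 7 held a match in at least 1 window, against 6.31% of 27025 genes. The matches are shown in capitals in 30 bases of the strand of the gene (minus for Rel and Chuk), with the distance of their center.
Nfkb2, chr19:46304689-46304718, at −33 from the first start site: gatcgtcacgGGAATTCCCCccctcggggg
Nfkb2, chr19:46304716-46304745, at −6 from the first start site: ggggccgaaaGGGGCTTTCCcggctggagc
Nfkb2, chr19:46305695-46305724, at 15 from the second start site: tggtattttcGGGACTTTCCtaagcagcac
Rel, chr11:23771041-23771070, at −86 from the start site: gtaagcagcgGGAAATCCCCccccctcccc
Chuk, chr19:44107524-44107553, at −61 from the start site: accaatcccaGGGTGATTCCaggagctcgg
Map3k7, chr4:31964005-31964034, at −87 from the start site: ccccgggtcaGGAAATTCCCcgctcgggtc
The second window of Nfkb2 held 1 further match. The windows of Rela, Ikbkg and Map3k14 held none. A link between these matches and the Input changes was not tested. These counts describe letters in short windows and say nothing of binding.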

How the data were processed

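Raw counts per gene were deposited for 24 libraries. Before that, per the labels and methods, the authors trimmed with Trimmomatic 0.39, aligned to mm10 with HISAT and counted with HTSeq. The authors called peaks with MACS2 for each IP library and strand; the deposited peak lists hold a score, a fold enrichment and −log10 p and q values, the lowest −log10 q being 2.00075. The pairing of Input and IP libraries in peak calling was not given in the sources used here.

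Counts were tested with edgeR 4.0.16 in R 4.3.3 (TMM scaling, quasi-likelihood F test, at least 10 counts in at least 3 libraries, Benjamini-Hochberg threshold 0.05): 16090 genes over 12 Inputs for RNA, and 17373 genes over 24 libraries for IP over Input. Lines that name no gene were left out, and reads in no feature came to 2.97 to 6.80%, highest in the WT IR Inputs. Input CPM was scaled over the 12 Inputs and IP CPM over all 24 libraries. Depth was 65180075 to 86421888 gene counts, and the common biological coefficient of variation was 5.57% and 4.98%. Tested on simulated data for WT IR against WT Ctrl Input (15735 genes), 69% of changes of 0.3 on the log2 scale and 100% of changes of 1 were called. For IP over Input in cKO Ctrl against WT Ctrl (16759 genes), the shares were 59% and 99%. Each simulation changed 200 genes and gave every gene a single mean over all its libraries, IP and Input alike in the second. In the data 31.7% and 22.6% of genes were called in these contrasts, so the shares may not hold for them. Gene positions and transcripts came from GENCODE on GRCm38, where 54409 of 54446 identifiers matched.

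The genes and pathway lists were chosen with earlier results of these data known. All 10 genes are named, other pathway genes only where called with the 2 largest changes of their list, and for likeness the gene with the highest Pearson r. Alternatives were DESeq2 1.42.0, RLE scaling, other count filters, only the 6 libraries of a contrast, a replicate block, each library left out, a peak fold of at least 4 or an overlap of 50%, and the irradiated IP libraries set against Inputs of the other genotype label.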

Additional observations from a re-analysis of the deposited data

Results flagged for a closer look

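Irradiation effects on Input RNA differed between genotypes for 6 of the 10 genes by a test of the difference itself (cKO less WT, log2 scale, edgeR over all genes), where 30.2% of all genes were called and 15.2% lay below 0. The differences were −0.38 ± 0.06 (SE) for Rel, −0.31 ± 0.06 for Map3k14, −0.30 ± 0.06 for Rela, −0.30 ± 0.05 for Nfkb2 and −0.26 ± 0.04 for Nfkb1, with adjusted p between 4.1e-05 and 0.00072. For Ikbkg the difference was 0.23 ± 0.05, with an adjusted p of 0.0010.

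For IP over Input by label, the same test gave 1.54 ± 0.09 for Map3k14, 0.86 ± 0.08 for Relb, 0.73 ± 0.06 for Nfkb2, 0.62 ± 0.08 for Rel and 0.53 ± 0.05 for Nfkb1, with adjusted p between 6.1e-15 and 2.6e-07, where 33.6% of all genes were called. These 5 values rest on the irradiated IP libraries, whose Lyz2 levels were those of the other genotype label. With Inputs of that label the values were 0.996 for Map3k14, 0.62 for Relb, 0.14 for Nfkb2, −0.036 for Rel and 0.41 for Nfkb1, of which those of Nfkb2 and Rel did not pass the test. The Ctrl libraries were kept by label, so by Lyz2 these values mix genotype with irradiation.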

How the results depend on the processing

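With the irradiated IP libraries set against Inputs of the other genotype label, 3 genes in place of 5 were called for the difference of irradiation effects on IP over Input, and 12 of 60 values changed sign. Of these, 7 were called with neither set of Inputs and 5 were called with at least 1, at 0.075 for Nfkb2 between WT IR and WT Ctrl, −0.21 for Rel between cKO IR and cKO Ctrl, −0.21 for Nfkb2 and −0.22 for Rel between cKO IR and WT IR, and −0.036 for Rel in the difference of irradiation effects. Signs here follow the IP labels, and by Lyz2 the irradiated ones stand in the reverse order of genotype. With a peak fold of at least 4, 0 genes had a consensus peak in place of 1.

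Input calls kept their side of the threshold in 47 of 50 values with DESeq2, in 50 with RLE scaling and in 47 with a filter of 50 counts. Only the 6 libraries of a contrast gave 35 of 40, and over all genes 3870 calls in place of 2520 between cKO Ctrl and WT Ctrl. Leaving out 1 library, 13 of 360 Input values lost a call and 5 gained one, against 5 and 4 of 960 for IP over Input. Deviations of same-numbered libraries from their group means correlated at −0.12 to 0.06 between Inputs and at −0.05 to 0.04 between Input and IP. With 3 libraries in a group, such values cannot exclude a shared source, so whether same-numbered libraries are pairs is not known. A replicate block left the called genes at 8 of 10 for irradiation in WT and changed none of 50 Input or 90 IP over Input calls. The per-length ranks depended on the transcript length used.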
